A study of Mus musculus with 24 samples.

Results

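The extracellular matrix genes of fibroblasts were followed here: 39 genes for collagens, laminin and nidogen, glycoproteins, proteoglycans, cross-linking enzymes, matrix proteases and their inhibitors, together with the mesenchymal markers Vim and Pdgfrb. Members were chosen by gene symbol, and every probe set that the platform annotation assigned to that symbol alone was taken. Of the 39 genes, 37 had such a probe set, 86 in all out of 45037 on the array. Testing required a signal over log2 4 on 3 or more arrays, and 74 probe sets of 34 genes met this, out of 19305 probe sets of 9421 genes. The elastin gene Eln, Col18a1 and the protease gene Mmp3 did not, with highest values on any array of 2.65, 3.29 and 2.72. Fbn1 had no probe set of its own symbol, and Loxl2 was named only on 2 probe sets that also carried a second gene. Below, a gene stands for the tested probe set whose mean signal over the 24 arrays was highest.

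The cells were NIH-3T3, an established mouse embryonic fibroblast line, plated the day before, and total RNA was measured on 24 one-colour arrays in 7 groups. Mock treatment, IFN-alpha and IFN-gamma (each interferon at 100 U/ml) were hybridised on 4 arrays each after 1 h, with 200 µM 4-thiouridine (4sU, a nucleoside taken up into new RNA) present throughout the 60 min. After 3 h each treatment had 3 arrays, and here 500 µM 4sU was present between 150 and 180 min. The seventh group, also of 3 arrays, was mock-treated for 1 h and received no 4sU. All groups shared the cell line.

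Fibrillar collagens are secreted as triple helices, folded with the help of prolyl hydroxylases and the chaperone Serpinh1 and joined into fibres by lysyl oxidases. Basement membrane collagen, laminin and nidogen form sheets, matrix metalloproteases cut both, and the TIMP proteins inhibit those proteases. Interferons act through cell surface receptors and the kinases bound to them, and IFN-gamma is known as an inhibitor of collagen synthesis in cultured fibroblasts.

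Promoters were read from RefSeq windows on GRCm38.p6, each reaching from 250 bases before to 50 bases after an annotated start. Windows were found for 25 of the 39 members, 22 of them among the 34 tested. The pair Col4a1 and Col4a2 is shown because the genes lie head to head. Their windows, chr8:11312777-11313076 on the minus strand and chr8:11312555-11312854 on the plus strand, shared 78 bases, given in capitals.
Col4a1: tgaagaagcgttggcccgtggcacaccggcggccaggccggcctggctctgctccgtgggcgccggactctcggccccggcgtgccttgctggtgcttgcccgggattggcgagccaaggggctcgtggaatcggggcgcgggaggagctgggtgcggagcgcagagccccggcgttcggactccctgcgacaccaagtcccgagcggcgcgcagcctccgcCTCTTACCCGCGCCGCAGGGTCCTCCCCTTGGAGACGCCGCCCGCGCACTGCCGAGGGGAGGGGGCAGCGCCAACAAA
Col4a2: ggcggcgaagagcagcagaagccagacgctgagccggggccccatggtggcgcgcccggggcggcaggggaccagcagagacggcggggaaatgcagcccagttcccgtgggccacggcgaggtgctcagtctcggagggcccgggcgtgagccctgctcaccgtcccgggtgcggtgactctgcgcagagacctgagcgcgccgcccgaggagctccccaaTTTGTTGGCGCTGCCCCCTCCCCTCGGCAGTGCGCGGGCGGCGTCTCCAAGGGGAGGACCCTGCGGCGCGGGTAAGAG

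Timp3 and Postn are shown because they lead the results on IFN-gamma and on time. Capitals mark 2 GC boxes (GGGCGG on either strand) in the Timp3 window, chr10:86300162-86300461 on the plus strand. In Postn they mark a TATA box (TATAAA) in 1 of its 2 windows, chr3:54360857-54361156 on the plus strand.
Timp3: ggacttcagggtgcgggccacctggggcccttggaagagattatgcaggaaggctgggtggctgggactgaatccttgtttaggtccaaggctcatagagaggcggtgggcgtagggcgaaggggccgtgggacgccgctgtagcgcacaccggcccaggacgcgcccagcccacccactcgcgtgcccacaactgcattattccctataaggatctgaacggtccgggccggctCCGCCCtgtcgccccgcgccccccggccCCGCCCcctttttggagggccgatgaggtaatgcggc
Postn: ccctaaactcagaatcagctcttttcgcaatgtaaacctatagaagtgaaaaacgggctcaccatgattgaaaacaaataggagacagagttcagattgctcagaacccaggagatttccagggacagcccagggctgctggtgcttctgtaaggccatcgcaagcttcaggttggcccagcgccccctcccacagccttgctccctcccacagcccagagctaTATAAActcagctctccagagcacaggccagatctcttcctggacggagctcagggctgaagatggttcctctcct

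Letters of 4 motifs were searched on both strands, with overlapping matches counted. The interferon-stimulated response element (ISRE, searched as a pair of GAAA with any 2 bases between them) was found in 3.44% of all 32851 windows and in 1 of the 29 member windows, that of Fbn1. The GC box stood in 35.7% of all windows and in 19 member windows, the CCAAT box (CCAAT) in 37.4% and 12, and the TATA box in 13.6% and 7. A match is a run of letters within 300 bases and was not read as a binding site.

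The labelled cell type was checked on fixed markers. Of 7 fibroblast markers 6 were measured, with Pdgfra, Thy1, Prrx1 and S100a4 among them, and Fap stayed at background (mean 2.35). Of 10 leukocyte markers on the array only Cd14 was measured (mean 5.35), and of 6 epithelial and 6 endothelial markers 0 were. Of 4 muscle markers Acta2 was measured, at a high level (mean 12.6), and of 4 adipocyte markers Fabp4 (mean 5.01). Interferon was active on these arrays: Irf1, an interferon-induced transcription factor, was 10.2-fold higher with IFN-alpha and 38.8-fold higher with IFN-gamma at 1 h. On 5 arrays of 1 h the beta-actin signal was 2.22 to 3.43 log2 units higher at the 3′ end of the transcript than at the 5′ end, against 0.785 to 1.37 on the other 19. These were replicate 2 of the 3 groups of 1 h with 4sU and replicates 2 and 3 of mock cells without it.

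Replicate 2 of the 3 groups of 1 h with 4sU was set against the other replicates. Members deviating there by over 1 log2 unit were about as frequent as among all probe sets. The median deviation was lower over the members, at -0.33 against -0.03 over all probe sets. Serpinh1, the collagen chaperone, was at 11.87, 8.46, 10.89 and 12.12 in mock replicates 1 to 4 at 1 h. It was at 11.44, 8.80, 11.99 and 11.97 with IFN-alpha, and at 11.80, 8.47, 11.13 and 12.03 with IFN-gamma. Replicate 2 was the lowest array of each group, by 3.11 log2 units on average below the other 3. At 3 h the 9 arrays of Serpinh1 lay between 11.42 and 11.96. The same deviation of replicate 2 averaged -2.43 for Col12a1, a collagen that decorates fibrils, -1.93 for the membrane protease gene Mmp14, -1.92 for the adhesive glycoprotein gene Thbs1, -1.84 for Fbln2 and -1.45 for Col1a1. These 6 of 34 members (17.6%) exceeded 1 log2 unit, all downwards, against 20.2% of all probe sets in either direction and 15.0% downwards. Col8a1 (0.87), Lamb1 (0.80) and Tnc (0.64) deviated upwards, while Lum, Lox, Timp3 and Col5a1 deviated by less than 0.05. For Col4a2 the deviation was -0.43 in mock cells and 0.15 with either interferon. In 27 of 34 members replicate 2 deviated in the same direction in all 3 groups. The median SD of the members was 0.27 to 0.44 in the groups of 1 h and 0.078 to 0.095 in those of 3 h.

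**Figure D1:**
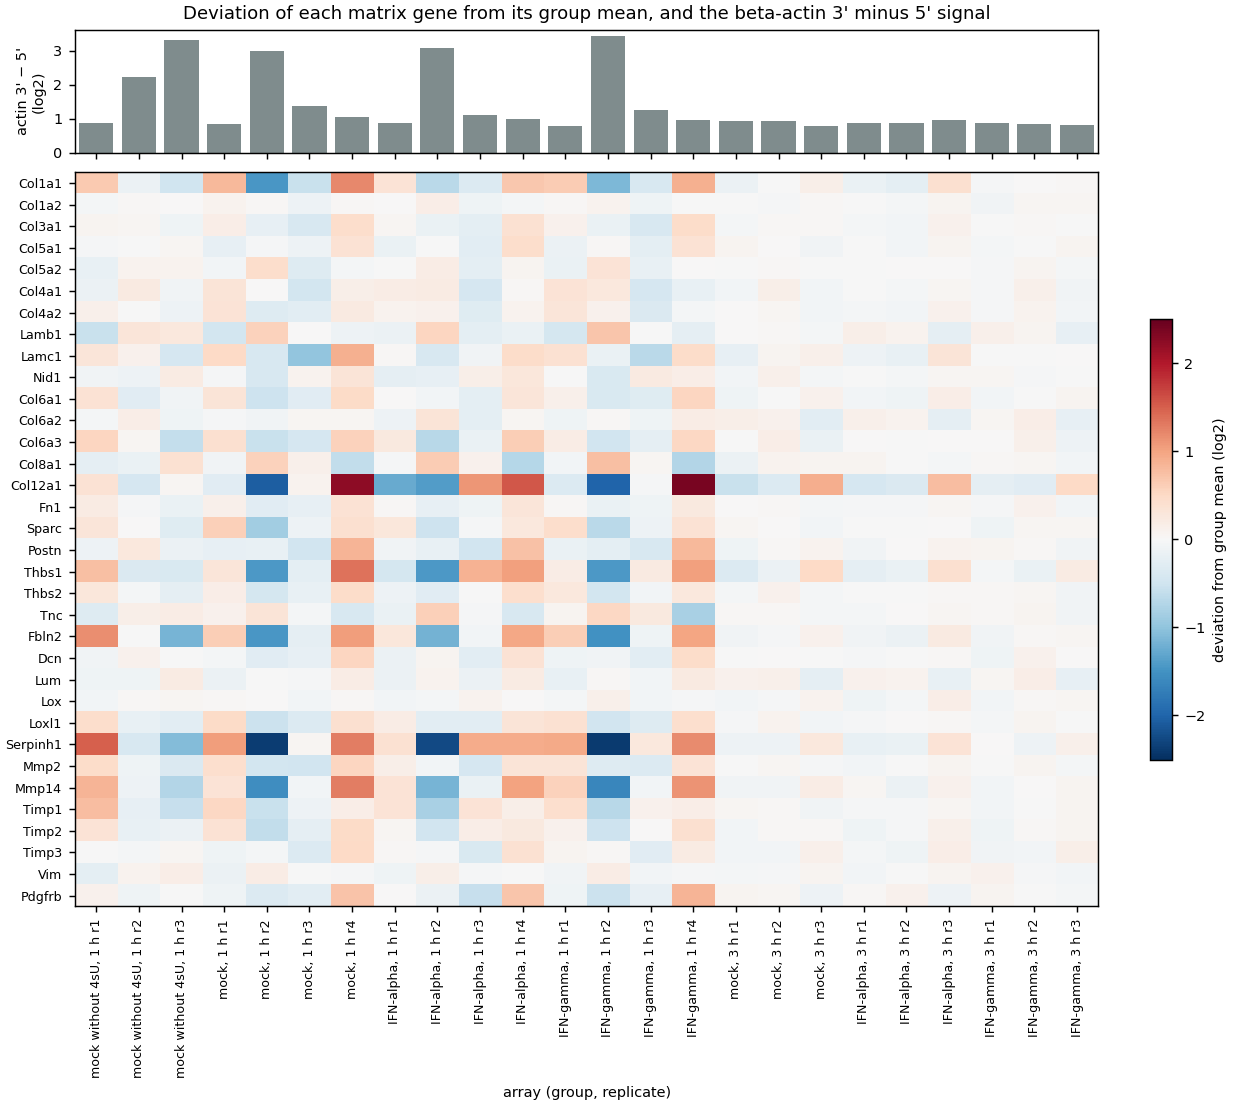
The colour gives the deviation of each matrix gene (rows) from its group mean in log2 units on each of the 24 arrays (columns, r is the replicate), and the bars above give the log2 difference between the 3′ and 5′ beta-actin probe sets. Serpinh1, Col12a1, Mmp14, Thbs1 and Fbln2 were low on replicate 2 of the groups of 1 h with 4sU, where the bars reach 2.99 to 3.43.

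The main question of the series is how the cells respond to each interferon, and no matrix gene passed the test against mock at either time in the fit without a replicate term. With the replicate number as a block, 2 members passed it, Timp3 and Pdgfrb with IFN-gamma at 3 h. With IFN-alpha at 1 h, 0 of 34 members were called by limma (Benjamini-Hochberg adjusted p under 0.05 over all 19305 probe sets), beside 0.259% of all probe sets, and 0 had an unadjusted p under 0.05. The median log2 difference was 0.08 over the members and -0.01 over all probe sets. With IFN-gamma at 1 h, 0 of 34 were called beside 0.492% of all probe sets, again with 0 at an unadjusted p under 0.05, and the medians were 0.05 and -0.04. The 95% interval of the difference stayed within 2-fold in either direction for 28 of 34 members in both comparisons. For Serpinh1, Col12a1, Thbs1, Mmp14, Fbln2 and Col1a1 it reached further, so a 2-fold difference in at least 1 direction lay inside it. This fit has no replicate term, so the width of its intervals does not show what a paired comparison could detect.

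By role, all 5 fibrillar collagens differed from mock by between 0.03 and 0.25 with IFN-alpha at 1 h. The highest were Col12a1 (0.73 ± 0.86 SE), Col1a1 (0.25 ± 0.49) and the collagen-binding glycoprotein gene Sparc (0.24 ± 0.27), and the lowest were Col8a1, Lum and Lamb1 (each -0.13). With IFN-gamma at 1 h the highest were Tnc (0.38 ± 0.24), Timp3 (0.27 ± 0.17) and Thbs2 (0.24 ± 0.20), and the lowest Col8a1 (-0.22), Col12a1 (-0.21) and Pdgfrb (-0.14). Every one of these values had an adjusted p of 1.00 in the limma fit. A fixed set of abundant matrix genes (Col1a1, Col1a2, Col3a1, Fn1, Sparc, Vim, Timp1, Thbs1, Lox, Serpinh1 and Tnc) ranged from -0.05 (Tnc) to 0.25 (Col1a1) with IFN-alpha and from 0.00 (Lox) to 0.38 (Tnc) with IFN-gamma. No member's arrays stood apart between interferon and mock at 1 h, beside 0.746% of all probe sets for IFN-alpha and 1.31% for IFN-gamma.

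At 3 h, when interferon-induced transcripts such as Cxcl10 were 419-fold (IFN-alpha) and 183-fold (IFN-gamma) above mock, 0 of 34 members were called by limma with IFN-alpha, beside 1.55% of all probe sets, and 0 had an unadjusted p under 0.05. The median difference was 0.01 over the members and -0.06 over all probe sets, and the members ranged from -0.28 (Pdgfrb) to 0.42 (Thbs1). Next came Mmp14 (-0.16) and Col6a2 (-0.13) below mock, and Timp2 and Tnc (each 0.20) above it, and the fixed set ranged from -0.10 (Serpinh1) to 0.42 (Thbs1). With IFN-gamma 0 of 34 were called, beside 1.99% of all probe sets, and 1 member, Timp3, had an unadjusted p under 0.05. With the replicate block, which the deviations of same-numbered arrays called for, Timp3 (limma adjusted p = 0.00293) and Pdgfrb (0.0149) were called, 2 of 34 beside 3.4% of all probe sets. The medians were -0.03 and -0.05. The 95% interval stayed within 2-fold for 28 of 34 members with IFN-alpha and for 26 with IFN-gamma. These intervals use a spread shared by all 7 groups. Members spread more widely at 1 h (median SD 0.27 to 0.44) than at 3 h (0.078 to 0.095). The intervals therefore do not give the uncertainty of the 3 h arrays alone. The signals were normalised between arrays, so neither the number of cells nor the RNA content per cell was measured.

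**Figure D2:**
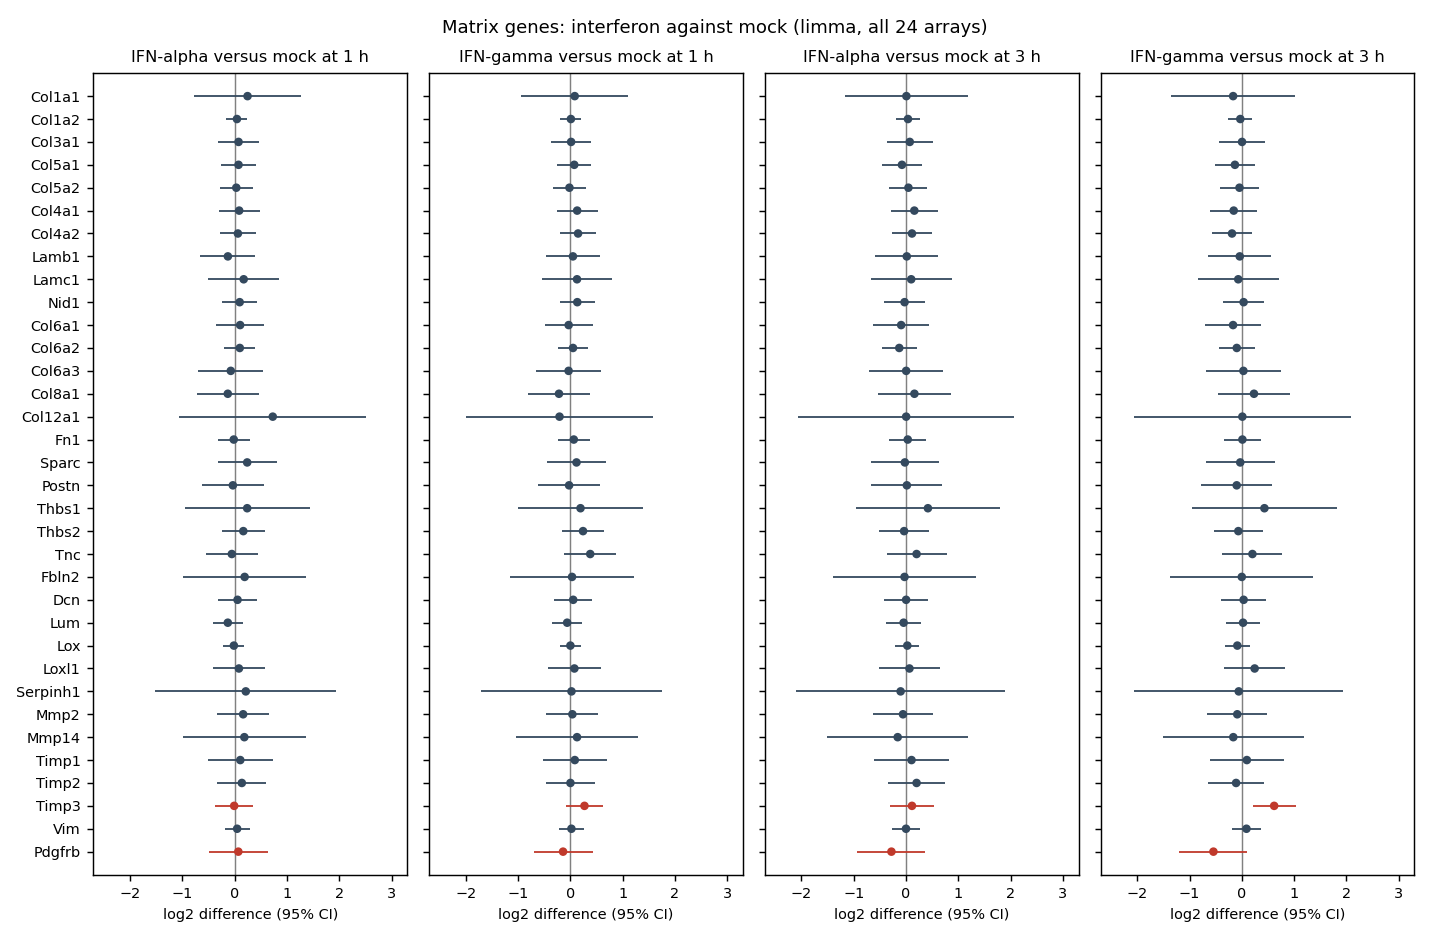
Points are the log2 differences of the 34 tested matrix genes between interferon and mock at 1 h and 3 h, with 95% intervals from the limma fit on all 24 arrays (Timp3 and Pdgfrb in red). Intervals are widest for Serpinh1 and Col12a1, and the interval of Timp3 with IFN-gamma at 3 h, from 0.20 to 1.03, lies above 0.

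The representative probe sets of the fibrillar collagen genes differed from mock by at most 0.17 in size with IFN-gamma at 3 h, and some of their other probe sets lay lower. Col1a1 was at 11.85, 11.99 and 12.15 on the mock arrays and at 11.79, 11.83 and 11.86 with IFN-gamma, a difference of -0.17 ± 0.56 SE. Col1a2, which codes for the other chain of type I collagen, was at 13.42, 13.40 and 13.44 and at 13.30, 13.44 and 13.44, a difference of -0.03 ± 0.11. The groups overlapped for both genes. The interval for Col1a2 ran from -0.26 to 0.20, so a change of 2-fold lay outside it, while that of Col1a1 ran from -1.34 to 1.01. Col3a1 (0.00 ± 0.21), Col5a2 (-0.04 ± 0.17) and Col5a1 (-0.13 ± 0.18) completed the group, whose median was -0.04. Probe set 1446326_at of Col1a2 was at 7.67, 7.72 and 7.38 on the mock arrays and at 6.997, 7.08 and 6.81 with IFN-gamma (-0.63 ± 0.22). Probe set 1416741_at of Col5a1 was at 6.86, 6.98 and 6.98 and at 6.48, 6.41 and 6.42 (-0.50 ± 0.39). Beside 21.5% of all probe sets in either direction, the arrays stood apart in both. They also stood apart in 1434479_at of Col5a1 (-0.33), 1423110_at of Col1a2 (-0.16) and 1450625_at of Col5a2 (-0.13), all lower with IFN-gamma. None of these 5 was called by limma (adjusted p of 0.311 to 1.00), also not with the replicate block, where 1446326_at had an adjusted p of 0.0903. On the arrays of 3 h alone limma called 1446326_at (adjusted p = 0.0105) and 1416741_at (0.0446), beside 5.84% of all probe sets. Probe set 1427884_at of Col3a1 lay higher than mock (0.06), with groups that overlapped.

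The 5 basement membrane genes had a median of -0.07. Col4a1 was at 10.12, 10.34 and 10.12 on the mock arrays and at 10.01, 10.16 and 9.95 with IFN-gamma (-0.15 ± 0.22). Its head-to-head partner Col4a2 was at 8.98, 9.01 and 8.89 and at 8.75, 8.86 and 8.71 (-0.19 ± 0.19), with every IFN-gamma array below every mock array. The laminin chains Lamb1 (-0.04) and Lamc1 (-0.07) and their linker Nid1 (0.03) differed less. The other collagens ranged from -0.17 (Col6a1) to 0.23 (Col8a1). Among glycoproteins Fn1 (fibronectin, 0.01 ± 0.17), Sparc (-0.03 ± 0.31), Postn (-0.10 ± 0.32) and Tnc (0.20 ± 0.27) were measured, and Thbs1 was at 0.43 ± 0.66. Serpinh1 (-0.06 ± 0.96), Lox (-0.09 ± 0.11), Vim (0.09 ± 0.13), Timp1 (0.10 ± 0.34) and Loxl1 (0.25 ± 0.28) made up the rest of the named genes. The elastic fibre, proteoglycan and protease groups held Fbln2 (-0.00), Dcn (0.03), Lum (0.02), Mmp2 (-0.09) and Mmp14 (-0.16). Outside the fibrillar collagens, further probe sets lay both above and below mock. The 3 probe sets of Col8a1 gave 0.23 to 0.48, and the second ones of Loxl1 and Tnc gave 0.48 and 0.49. Those of Fbln2 and Lamc1 gave -0.47 and -0.27. None of these was called by limma in the fit on all 24 arrays.

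Timp3, whose product binds to the matrix and inhibits metalloproteases, showed the largest difference from mock with IFN-gamma at 3 h. Mock arrays were at 10.05, 10.05 and 10.25, IFN-alpha arrays at 10.18, 10.11 and 10.40, and IFN-gamma arrays at 10.64, 10.68 and 10.89. In this probe set all 3 IFN-gamma arrays lay above all 6 others of that time. The difference from mock was 0.62 ± 0.20 SE (1.54-fold, 95% interval 0.20 to 1.03), with a limma adjusted p of 0.207, so it was not called. The other 3 probe sets of the gene gave 0.62, 0.66 and 0.71, and their IFN-gamma arrays overlapped those of mock. Replicate 3 was the highest array of each 3 h group in all 4 probe sets, and without IFN-gamma replicate 3 the difference was 0.54.

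The replicate numbers paired the arrays of a time, and with the number as a block the same difference was called (limma adjusted p = 0.00293, with 3.4% of all probe sets called). In a fit on the 9 arrays of 3 h alone, chosen after the data were seen, limma gave an adjusted p of 0.00841 with 5.84% of all probe sets called. At 1 h, Timp3 was at 10.60, 10.65, 10.36 and 11.20 in mock cells and at 11.05, 10.99, 10.68 and 11.17 with IFN-gamma, and the groups overlapped. The test of the IFN-gamma response at 3 h against 1 h gave 0.35 ± 0.26 (limma adjusted p = 1.00), so a difference between the times was not shown.

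Pdgfrb, the receptor for platelet-derived growth factor B on mesenchymal cells, lay lowest against mock with both interferons at 3 h. Mock arrays were at 10.19, 10.18 and 10.001, IFN-alpha arrays at 9.88, 9.94 and 9.71, and IFN-gamma arrays at 9.64, 9.57 and 9.53. The 3 groups did not overlap, with IFN-alpha between the other two. The differences from mock were -0.28 ± 0.31 SE and -0.54 ± 0.31 (1.46-fold lower), each with a limma adjusted p of 1.00. Its second probe set gave -0.26 and -0.75. For IFN-gamma the adjusted p was 0.0149 with the replicate block and 0.00572 on the arrays of 3 h alone, and for IFN-alpha 0.679 and 0.184. The block called 2.11% of all probe sets for IFN-alpha, and the arrays of 3 h alone called 3.15%. Both interferons were set against the same 3 mock arrays.

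**Figure D3:**
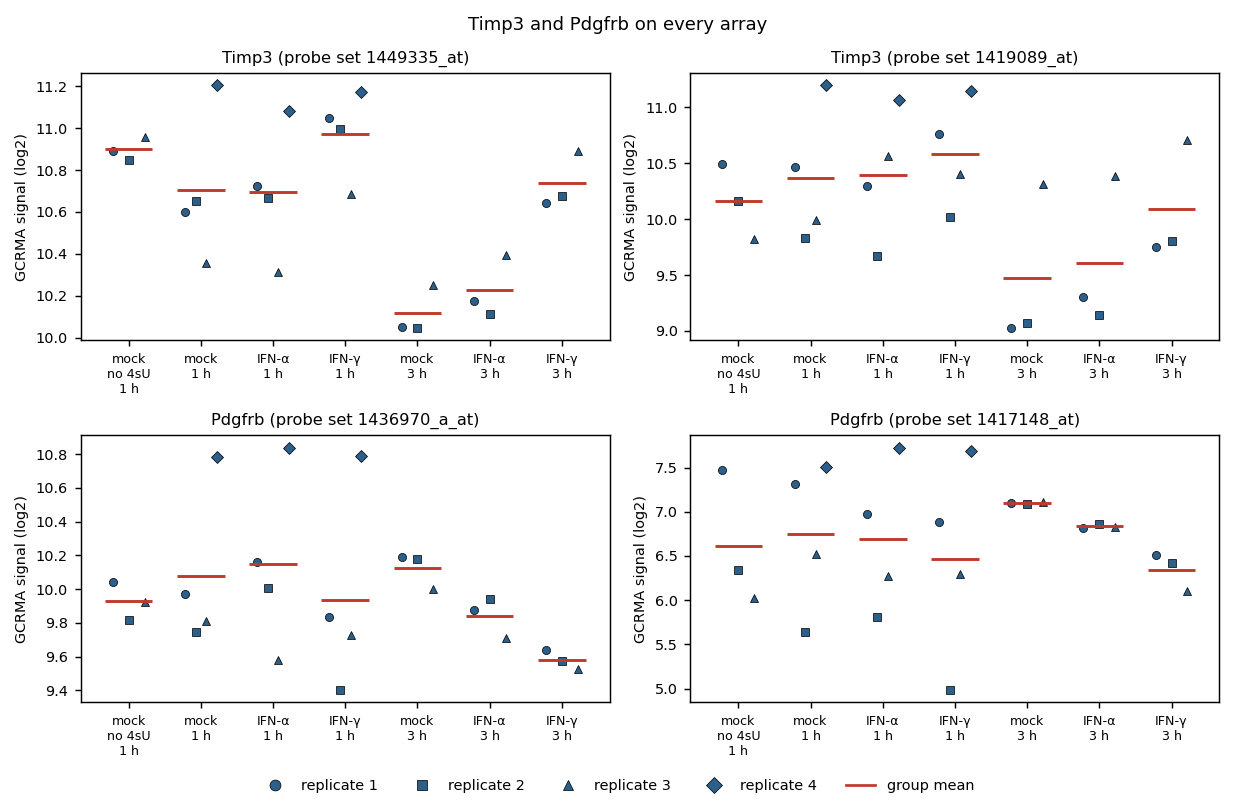
GCRMA signal (log2) of 2 probe sets each of Timp3 and Pdgfrb on every array, by group, with the replicate number as the symbol and the group mean as a red line. At 3 h the IFN-gamma arrays of probe set 1449335_at (Timp3) lie between 10.64 and 10.89, above the other 6, and those of both Pdgfrb probe sets lie lowest.

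Arrays of the 2 groups did not overlap for 6 of 34 members with IFN-alpha at 3 h, beside 19.6% of all probe sets, and for 6 with IFN-gamma, beside 21.5%. With IFN-alpha these were Col5a2, Col8a1, Tnc, Timp1 and Timp2 above mock and Pdgfrb below. With IFN-gamma they were Col8a1, Tnc, Loxl1 and Timp3 above mock and Col4a2 and Pdgfrb below. As shares of the members, both counts lay below those of the whole array.

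Set directly against IFN-alpha, IFN-gamma gave 0 of 34 called members at 1 h by limma (0 with an unadjusted p under 0.05, beside 0.363% of all probe sets called) and 0 at 3 h (1 with an unadjusted p under 0.05, beside 1.68%). At 1 h the lowest were Col12a1 (-0.94), Pdgfrb (-0.21) and Serpinh1 (-0.19) and the highest Tnc (0.43), Timp3 (0.28) and Lamb1 (0.18), and no member's arrays stood apart, beside 1.21% of all probe sets. At 3 h Timp3 was higher with IFN-gamma by 0.51 ± 0.20 SE (limma adjusted p = 0.608, 0.0176 with the replicate block and 0.0274 on the arrays of 3 h alone, where 3.12% and 5.14% of all probe sets were called). Loxl1 (0.18) and Vim (0.09) came next, and Col4a1 (-0.31), Timp2 (-0.31) and Col4a2 (-0.30) were lowest. The arrays did not overlap for 7 of 34 members, beside 19.5% of all probe sets. They were Loxl1 and Timp3 above, and Col5a2, Col4a1, Col4a2, Timp2 and Pdgfrb below.

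The response was also compared between the times. For IFN-alpha 0 of 34 members differed by limma, with 0 at an unadjusted p under 0.05, beside 0.953% of all probe sets called. Col12a1 (-0.73), Pdgfrb (-0.35) and Mmp14 (-0.35) had the lowest and Col8a1 (0.29), Tnc (0.25) and Thbs1 (0.18) the highest values. For IFN-gamma 0 of 34 differed, with 0 at an unadjusted p under 0.05, beside 0.829%. Pdgfrb (-0.40), Col4a2 (-0.33) and Thbs2 (-0.31) were lowest and Col8a1 (0.45), Timp3 (0.35) and Thbs1 (0.24) highest.

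4sU itself was tested in mock cells at 1 h. Of 34 members 0 were called by limma, beside 0.0311% of all probe sets. An unadjusted p under 0.05 was reached by 4 members, all lower with 4sU, beside 1352 of all 19305 probe sets in either direction. Col4a1 was at 10.23, 10.61 and 10.30 without 4sU and at 10.16, 9.86, 9.38 and 9.99 with it, a difference of -0.53 ± 0.20 SE with a limma adjusted p of 0.553. The groups did not overlap. The other 3 were Col4a2 (-0.40 ± 0.17), Col6a2 (-0.32 ± 0.15) and Tnc (-0.54 ± 0.26). Col12a1 (1.12 ± 0.93), Serpinh1 (0.87 ± 0.90) and Fbln2 (0.63 ± 0.61) were highest, on groups that hold 2 of 3 and 1 of 4 arrays of low 5′ actin signal, whose part in the result was not tested. Arrays did not overlap for 4 members, beside 4.04% of all probe sets in either direction and 2.9% lower, and these were Col1a2, Col4a1, Col6a2 and Lox, all lower with 4sU.

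Mock cells at 3 h and 1 h differed in time, in 4sU dose and in labelling window, which cannot be told apart. Whether the arrays of both times were normalised in 1 run is not given in the sources used here, and a shift between runs could not be told apart from these either. Of 34 members 5 were called by limma, beside 11.3% of all probe sets: Col4a2 rose, and Postn, Col8a1, Lum and Timp3 fell. By role these were 1 of 5 basement membrane genes, 1 of 5 other collagens, 1 of 6 glycoproteins, 1 of 2 proteoglycans and 1 of 3 inhibitors. None of the 5 fibrillar collagens, 3 cross-linking and chaperone genes, 2 proteases, 2 cell markers or Fbln2 was called. The median difference was 0.13 over the members and 0.06 over all probe sets.

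Postn, the cell-adhesive glycoprotein periostin, was at 9.37, 9.38, 9.10 and 10.43 at 1 h and at 8.18, 8.31 and 8.37 at 3 h. All arrays of 3 h lay below all of 1 h, and Postn fell by 1.28 ± 0.30 SE (2.43-fold, limma adjusted p = 0.00945). Its interferon arrays of 3 h, at 8.11 to 8.40, overlapped those of mock. Col8a1, a short-chain collagen, was at 9.67, 10.33, 9.88 and 9.14 and then at 8.53, 8.77 and 8.76, so that the groups stood apart. It fell by 1.07 ± 0.31 (2.09-fold, adjusted p = 0.0304), while its other 2 probe sets (-0.39 and -0.24) were not called.

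Lum, the proteoglycan lumican that binds collagen fibrils, was at 9.83, 9.98, 9.95 and 10.16 and then at 9.54, 9.56 and 9.20. The arrays did not overlap and the fall was -0.55 ± 0.15 (adjusted p = 0.0223). Its neighbour on the chromosome, Dcn (decorin), differed by -0.05 ± 0.19. Timp3 was at the values given above and fell by 0.59 ± 0.19 (adjusted p = 0.0459). Of the 4 Timp3 probe sets 1 was called, and the others gave -0.90, -0.45 and 0.59, so the direction was not shared by all.

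Col4a2 was at 8.71, 8.04, 8.10 and 8.59 at 1 h and at 8.98, 9.01 and 8.89 at 3 h, and rose by 0.60 ± 0.17 (1.52-fold, adjusted p = 0.0305). Every array of 3 h lay above every array of 1 h. Its partner Col4a1, which shares the promoter bases shown above, differed by 0.35 ± 0.20 (adjusted p = 0.266). The remaining members with the largest differences were Col12a1 (1.38 ± 0.93), Fbln2 (0.98 ± 0.61) and Serpinh1 (0.86 ± 0.90) above and Thbs1 (-0.66 ± 0.62) below, none of them called. Arrays did not overlap for 10 of 34 members, beside 32% of all probe sets.

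The 5 calls depended on which arrays entered the fit, and also on how the probe sets of a gene were summarised (last section). In a fit on the mock arrays of 1 h and 3 h alone limma called 0 of 34 members and 822 of all 19305 probe sets, and Postn had an adjusted p of 0.0635. Postn was called in all 7 fits that left out 1 mock array, Lum in 4, and Col4a2, Col8a1 and Timp3 in 2 each. The 5 calls became 2 without mock replicate 2 and 3 without replicate 3 at 1 h, and 1, 2 and 1 without mock replicate 1, 2 or 3 at 3 h. Without the arrays of low 5′ actin signal, Postn (-1.35), Col8a1 (-0.87) and Lum (-0.55) were called with Timp1 (0.57), beside 18.2% of all probe sets, and Col4a2 (0.49, adjusted p = 0.0668) and Timp3 (-0.60, adjusted p = 0.0638) were not. Serpinh1 then differed by 0.07 in place of 0.86, Fbln2 by 0.49 in place of 0.98 and Col12a1 by 0.70 in place of 1.38. Thbs1 went the other way, to -1.13 from -0.66, and the sign turned for Col1a1 (-0.37 from 0.11) and Mmp14 (-0.24 from 0.27), none of them called in either fit.

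**Figure D4:**
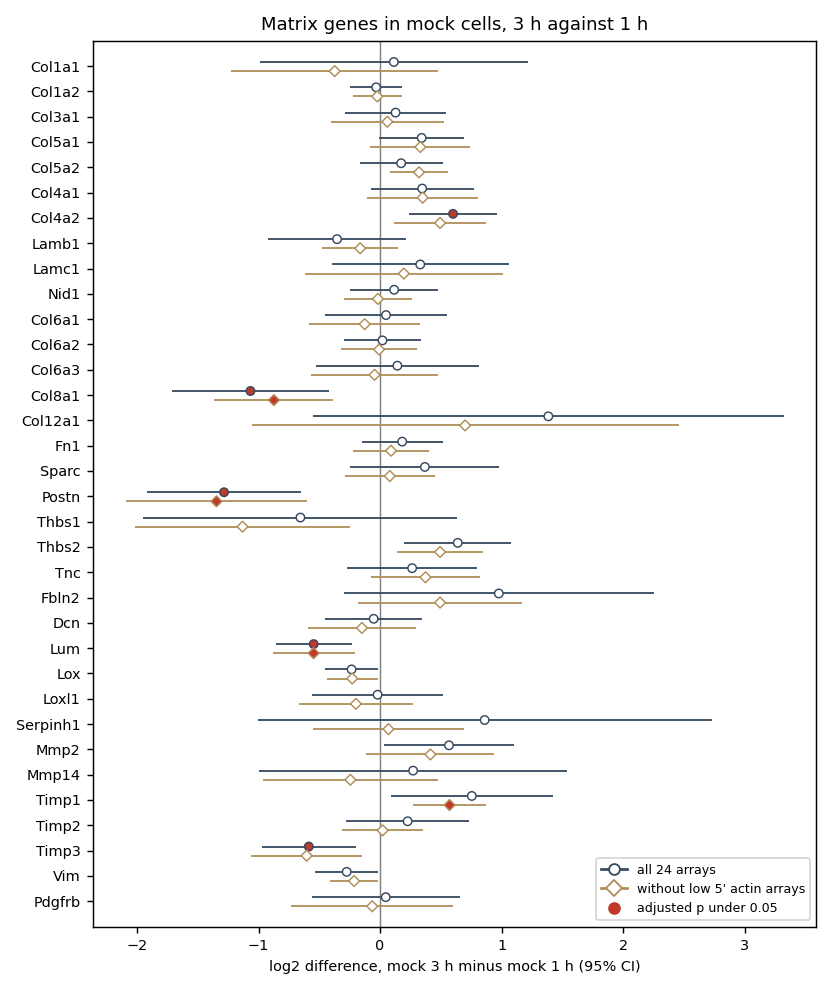
Log2 differences of the 34 matrix genes between mock cells at 3 h and 1 h with 95% intervals, from the fit on all 24 arrays (circles) and without the 5 arrays of low 5′ actin signal (diamonds). Filled red symbols have an adjusted p under 0.05; Postn, Col8a1 and Lum are red in both fits.

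Probe sets of the same gene disagreed between the mock times. Of 74 member probe sets 11 were called, 3 higher and 8 lower, beside 11.3% of all probe sets, 5.45% higher and 5.88% lower. Of the 27 members with at least 2 tested probe sets, 14 had probe sets on both sides of 0 and 8 had some but not all called. Among all 4439 genes with at least 2, these shares were 52.4% and 20.7%. Probe sets on both sides of 0 were thus about as frequent among the members as over the whole array. The clearest case was Tnc, the glycoprotein tenascin C. Probe set 1456344_at was at 9.58, 9.77, 9.51 and 9.38 at 1 h and at 5.46, 5.76 and 5.97 at 3 h, and fell by 3.83 ± 0.22 SE (14.2-fold, limma adjusted p = 3.42e-10). Probe set 1416342_at of the same gene was at 9.59, 9.81, 9.44 and 9.07 and then at 9.76, 9.78 and 9.68, a difference of 0.26 ± 0.26. The first had groups far apart and the second had groups that overlapped.

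Nid1, the linker of laminin and collagen IV, showed a like split. Probe set 1441519_at fell by 1.87 ± 0.20 (3.67-fold, adjusted p = 2.14e-06), from 7.26, 7.10, 6.99 and 7.68 to 5.41, 5.29 and 5.44, while probe set 1416808_at differed by 0.12 ± 0.17. For Thbs2, an inhibitor of vessel growth, probe set 1447862_x_at fell by 0.94 ± 0.21 (adjusted p = 0.0058), and the representative probe set differed by 0.64 ± 0.21 (adjusted p = 0.0553). For Fbln2 the probe sets gave -1.02 (called) and 0.98 (not called). Probe set 1446326_at of Col1a2 rose by 1.02 ± 0.20 (adjusted p = 0.00265) beside -0.03 for the representative one. For Col12a1 both probe sets were higher, 1427391_a_at by 1.51 ± 0.43 (adjusted p = 0.0268) and the representative one by 1.38 (not called). Except for Col12a1, a statement on these genes between the times therefore holds for a probe set, not for the gene. With either interferon against mock 0 of the 74 probe sets were called at either time.

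**Figure D5:**
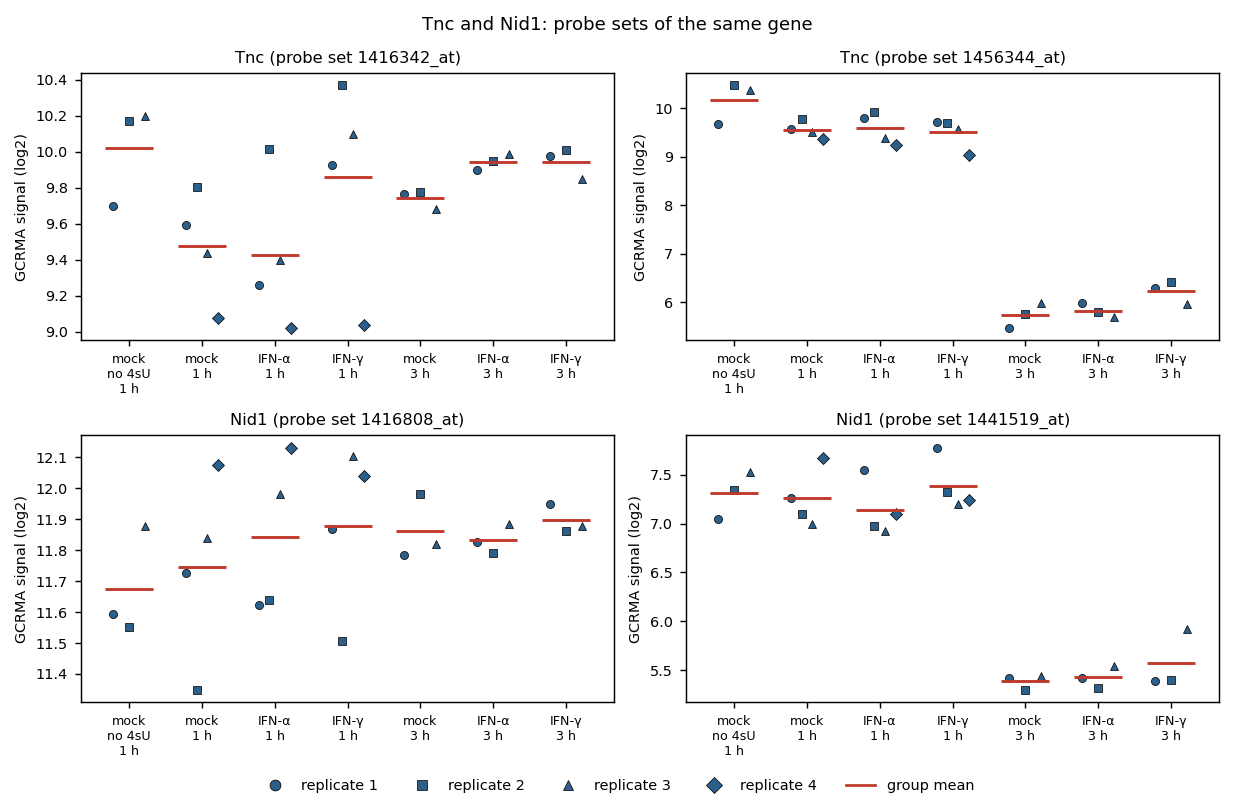
GCRMA signal (log2) of 2 probe sets each of Tnc and Nid1 on every array, by group, with the group mean as a red line. Probe sets 1456344_at and 1441519_at lie lower on all 9 arrays of 3 h than on all 15 of 1 h, while 1416342_at and 1416808_at overlap between the times.

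Other matrix genes came from 4 lists with 97 symbols, of which 72 were measured: 14 of collagen processing, 17 of the TGF-beta pathway, 13 matrix receptors and 28 of other matrix and remodelling. In each of the 4 comparisons of interferon with mock 0 of the 72 were called by limma, with 0, 1, 1 and 4 at an unadjusted p under 0.05 (IFN-alpha and IFN-gamma at 1 h, then at 3 h). The medians by list in the order above were 0.03, -0.11, 0.01 and -0.02 with IFN-gamma at 3 h. In the fit on the arrays of 3 h alone, which called 5.84% of all probe sets, 3 of the 72 rose with IFN-gamma, Has2 (hyaluronan synthase, 0.91), the laminin chain Lama4 (0.82) and Tgfbi (0.66), and 3 fell, the ligands Tgfb3 (-0.76) and Tgfb2 (-0.67) and their signal transducer Smad3 (-0.37). With the replicate block, which called 3.4%, these were Has2, Lama4, Tgfbi and Tgfb3. In either of these fits 1 of the 72 was called with IFN-alpha, higher than mock. Beside it stood 3.15% of all probe sets on the arrays of 3 h alone and 2.11% with the block. Between the interferons 3 were called in either fit, 2 higher and 1 lower with IFN-gamma, beside 5.14% and 3.12% of all probe sets.

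Between the mock times 6 of the 72 rose and 7 fell by limma, against 5.45% and 5.88% of all probe sets. Collagen processing had 3 higher of 14, the prolyl hydroxylase subunits P4ha2 (1.07 ± 0.16) and P4ha1 (0.73 ± 0.17) and the collagen-cutting protease gene Ctsk (0.78 ± 0.22). Ctsk lay below log2 4 on every array of 1 h, at 3.08 to 3.87 in mock cells with 4sU. In mock cells at 3 h it was at 3.98 to 4.22. It met the filter only through arrays of 3 h, so its call lends no support to a rise. The TGF-beta pathway had 3 lower of 17, the inhibitors Smad7 (-1.27 ± 0.33) and Skil (-1.03 ± 0.30) and the matricellular Ccn2 (-0.48 ± 0.15). Among 13 receptors Itgb5 rose (0.62) and Sdc2 fell (-0.60). Among the 28 other genes Col5a3 (1.44 ± 0.21) and Vcan (0.64) rose, and Aspn (-1.94 ± 0.40), Adamts1 (-1.03) and Matn2 (-0.81) fell. Col5a3 was at 3.18 to 3.89 on the mock arrays of 1 h with 4sU, below log2 4, and at 4.80 to 4.98 at 3 h. It too met the filter only with arrays of 3 h. In the other 5 comparisons 0 of the 72 were called by limma, with 1 at an unadjusted p under 0.05 in each.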

How the data were processed

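The deposited values are GCRMA signals on the log2 scale, computed by the authors per the submitters' processing notes (the version and whether the arrays shared 1 run are not given in the sources used here), from biotin-labelled total RNA per the labels' protocols. They were used as deposited. Of 45037 probe sets without controls, the platform annotation gave 34945 a single symbol, 932 several and 9160 none, and only single symbols were used. Probe sets above log2 4 on at least 3 of 24 arrays were kept. One model over the 7 groups was fitted in limma 3.58.1 (functions lmFit and eBayes, in R 4.3.3 with data.table at version 1.17.8, 17 residual degrees of freedom), without a replicate term, for 10 comparisons, with two-sided tests and Benjamini-Hochberg adjustment over all 19305 probe sets. The fit was tested on simulated data with independent arrays and the same spread per probe set in all groups. That test did not cover replicates that deviate together or a wider spread at 1 h. The number of arrays limits the precision.

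Members and lists were chosen with earlier results of these data known. Named were the called members, the 3 largest differences in each direction, a fixed set of 12 genes (11 measured), called genes of the other matrix lists, up to 4 in each direction, and members whose probe sets disagreed in a call. Further genes of the matrix lists, and those called only in alternatives, were named after their values were seen. The listed roles, markers and matrix lists are given with the results.

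Whether replicates came from separate cultures is not given in the labels, so the p-values reflect only how far these arrays differ, and that spread may be technical. Same-numbered arrays deviated together from their group means between mock and interferon at 1 h (correlations 0.465 to 0.914 over 12 pairs) and at 3 h (0.128 to 0.646 over 9 pairs), so a replicate block was fitted as an alternative. The other alternatives were the filter, a floor, quantile normalization, fewer groups in the fit, array weights, the actin difference as an exclusion or covariate, the median of a gene's probe sets and leaving out each array. Promoter windows are from RefSeq (GRCm38.p6), and the search for 1 further motif is not reported here.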

Additional observations from a re-analysis of the deposited data

Results flagged for a closer look

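Of 102 sets of 4 arrays checked (34 members in the 3 groups of 1 h with 4sU), 4 held an array far from the other 3 by Dixon's 95% criterion, and chance gives about 1 in 20. Lox in mock cells at 1 h was at 12.91 in replicate 3, against 13.00 to 13.02. Col4a2 with IFN-alpha at 1 h was at 8.11 in replicate 3, against 8.52 to 8.54. With IFN-alpha at 1 h, replicate 2, an array of low 5′ actin signal, was at 10.7 for Lamb1, against 9.93 to 10.03, and at 10.37 for Timp1, against 11.34 to 11.53.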

How the results depend on the processing

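Counts of called members moved by over 1.5 times as follows. With IFN-gamma against mock at 3 h the 0 became 2 with the replicate block, with only the groups compared, with array weights and with only the arrays of that time, and 3 when those arrays were fitted with the replicate block (Thbs1 was the third). At an unadjusted p it was 1. For IFN-gamma against IFN-alpha at 3 h it was 1 with the replicate block, with only the arrays of that time and at an unadjusted p, 2 with those arrays and the block, and 3 with array weights. For 4sU it was 4 at an unadjusted p and 0 with the replicate block, whose numbers did not pair the arrays (lowest correlation 0.081). Between the mock times the 5 became 0 with only the groups compared, 8 with the actin covariate, and 10 with array weights or at an unadjusted p. Leaving out 1 array gave 1 to 6, lowest without mock 3 h replicate 1 or 3. For this comparison no value with the block could be had, because the blocks lie within a time. With the median of a gene's probe sets, Thbs2 reversed to -0.82 and Tnc to -1.78 between the mock times. Both were called there (limma adjusted p = 0.0268 and 1.61e-05), with Postn, Lum, Col4a2 and Col5a1. Col8a1 and Timp3 were not called in that setting. The block changed no other call of the members in the comparisons of interferon. The array weights did not reach their convergence tolerance. The number of arrays and the spread at 1 h limit what could be detected.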
